A study of Mus musculus with 4 samples.

Results

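Six3, Six6, Lhx2, Pax6, Otx1 and Otx2 are homeobox genes of the eye field and the anterior neural plate, and their transcripts were compared here between mouse retinal organoids grown with and without doxycycline (Dox). They were chosen by name as the rows of the deposited gene table that carry these 6 symbols, and the table holds 55426 rows in all. Each symbol matched exactly 1 row. Retinal organoids are aggregates of pluripotent cells that are steered in culture towards retinal progenitors. All 4 libraries came from 1 line at day 6. The line is a Mettl3 knockout that carries a reporter called Rx:GFP and an HA-tagged METTL3 placed under Dox control, and all 4 libraries share the knockout, the reporter and the inducible construct. The organoids were differentiated in GMEM-based medium with 5% KSR and 0.1 µM of an agent labelled AGN. The 2 untreated libraries received no Dox, and the 2 Dox libraries received 2 µg/ml for 6 days. In the titles the groups are called EV and EV+Dox, with no explanation of EV. The labels do not say whether the line is a single clone, nor whether the replicates came from separate differentiations, so p-values measure the spread between these libraries only.

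Homeobox genes encode transcription factors that bind DNA through a homeodomain. In the anterior neural plate a small group of them, with Rax, marks the eye field, from which the optic vesicles bud, and SIX3, SIX6, LHX2 and PAX6 are each needed for normal eye development. OTX1 and OTX2 act earlier and more broadly in specifying forebrain and midbrain, and OTX2 is used again in the pigment epithelium and in photoreceptor precursors. METTL3 is the enzyme that, within a larger complex, methylates adenosine in messenger RNA.

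The libraries were deep and the replicates resembled each other. The fitted depth ranged from 31900000 to 34800000 fragments per library. FPKM, the unit of the table, is a fragment count scaled to transcript length and library depth. Over 13931 tested genes (not independent of each other) the log2(FPKM + 1) values of the untreated pair had a Pearson's r of 0.990 and those of the Dox pair 0.987, while libraries of different groups had 0.960 to 0.966. Mettl3 itself was listed at 40.33 and 37.98 FPKM without Dox and at 45.2 and 46.37 FPKM with it (adjusted p = 0.122 in limma), and gene-level values do not separate the inducible copy from the knocked-out locus. As a check of the label, the 7 retinal progenitor markers that are not among the 6 genes, such as Rax, Sfrp2 and Tbx2, summed to 202 to 216 FPKM without Dox and to 630 to 734 FPKM with it. Of these 5 were called higher and 0 lower in limma. The 11 neuron markers summed to 203.2 to 203.4 FPKM without Dox and to 96.7 to 98.5 FPKM with it. The 7 neural crest markers summed to 38.3 to 38.5 and to 12.4 to 13.5 FPKM. The 12 telencephalon markers summed to 165.9 to 168.4 and to 47.0 to 55.1 FPKM, and of 5 tested ones 3 were called lower and 1 higher. Pluripotent and epiblast markers summed to 73.9 to 77.8 FPKM without Dox and to 58.2 to 84.9 FPKM with it, lens and surface ectoderm markers to 68.2 to 75.3 and 68.1 to 78.3 FPKM, and no mesendoderm marker was tested. General neuroepithelium markers, with Pax6 among them, summed to 1171 to 1220 and to 944 to 1041 FPKM. That sum joins opposite changes, as of these 10 markers 5 were called lower and 2 higher in limma. Among all tested genes 4.87% were called lower and 4.44% higher. The part of these cells in the results was not tested.

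With Dox, 3 of the 6 genes were higher past the threshold, 2 were lower and 1 was not called. Six6, Six3 and Lhx2 rose, Otx1 and Otx2 fell, and Pax6 differed by less than its replicate spread. The threshold was an adjusted p below 0.05 in limma, a linear model that shares variance across genes, after Benjamini-Hochberg adjustment over all 13931 tested genes. Of all tested genes 4.44% were called higher and 4.87% lower. The libraries of both groups did not overlap for 5 of the 6 genes, and among all tested genes this held for 53.4%. All 6 genes passed the filter of a mean of at least 1 FPKM, but Six6 passed it only through the Dox libraries, where it was high. RNA was measured in bulk, so a change in the number of cells of a type and a change in RNA per cell cannot be told apart.

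**Figure D1:**
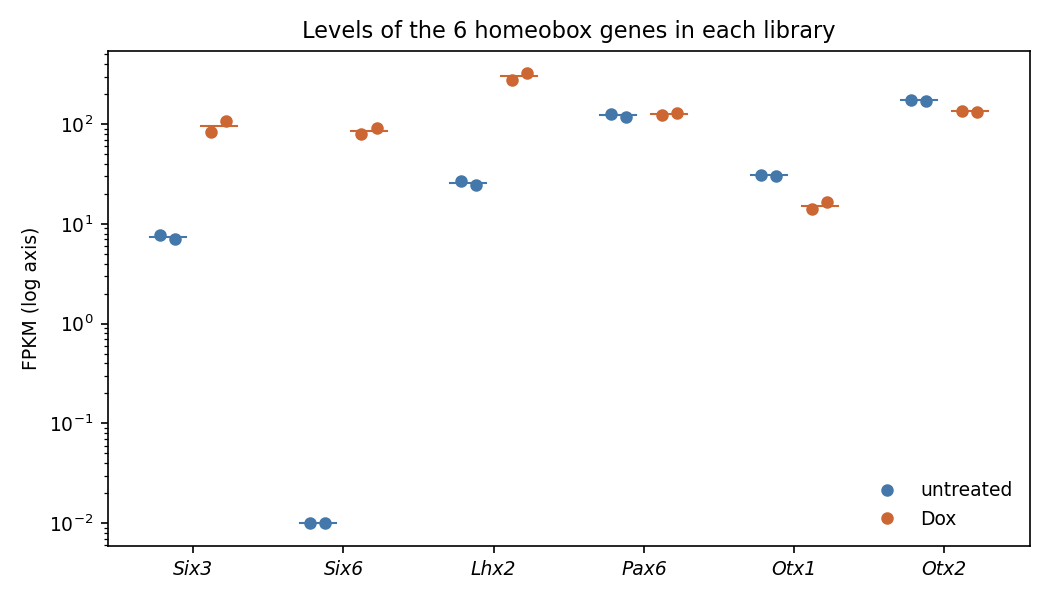
FPKM of the 6 genes on a log axis. Each point is 1 library and each bar the mean of 2 libraries. Six6 goes from 0.01 to about 85.8 FPKM, Six3 and Lhx2 lie 13.0-fold and 11.8-fold higher with Dox, Pax6 overlaps, and Otx1 and Otx2 lie lower.

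SIX3 and SIX6 are close relatives that act largely as repressors through Groucho/TLE partners. SIX3 also keeps Wnt signalling out of the anterior forebrain, and SIX6 promotes proliferation of retinal progenitors. Six3 was listed at 7.70 and 7.05 FPKM without Dox and at 83.02 and 108.75 FPKM with it. Both Dox libraries lay far above both untreated libraries, and the spread within the Dox group was wider. The means were 7.38 ± 0.460 and 95.9 ± 18.2 FPKM (SD, n = 2 each), a 13.0-fold rise. The log2 fold change was 3.52 on the log2(FPKM + 1) scale (95% interval 3.18 to 3.87, adjusted p = 1.46e-04 in limma).

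Six6 stood at 0.01 FPKM in each untreated library and at 79.22 and 92.44 FPKM with Dox. Its annotated transcript is 4009 nt long, and at the fitted depths 1 fragment is worth 0.00823 and 0.00762 FPKM in the untreated libraries. The untreated values therefore correspond to about 1 fragment each, while the Dox values correspond to about 9520 and 11453 fragments. Set against those 2 fragments, the ratio was 10900 with an exact 95% interval of 3010 to 89700, which covers counting error only. The fitted log2 fold change was 6.42 (adjusted p = 2.93e-05 in limma) and is set largely by the pseudocount. It was 9.61 with a pseudocount of 0.1 and 4.18 with a pseudocount of 5.

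Six6 had the larger fitted change of this pair. With 1 FPKM added to each gene, the log2 ratio of Six3 to Six6 was 3.11 and 2.99 in the 2 untreated libraries. In the Dox libraries it was 0.07 and 0.23. The untreated values are set largely by the pseudocount, as Six6 stood at 0.01 FPKM there and the plain ratio of means was 737.5. The levels of Six3 and Six6 overlapped with Dox. The difference of the ratio was -2.90, and it kept its sign with a pseudocount of 0.1 (-5.93) and of 5 (-1.16). An exact permutation test of the ratio over the 4 libraries gave p = 0.333, the smallest that 2 against 2 allow, and 0.333 after adjustment over the 3 pairs compared.

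Six3 and Six6 each overlap an opposite-strand gene that was higher with Dox as well. Six3 (ENSMUSG00000038805) lies on chromosome 17 from 85613608 to 85629302, plus strand, in GRCm38. Six3os1, a non-coding transcript on the minus strand, shares 106 nt of exon with it, 1.95% of the Six3 exon length. Six3os1 was at 9.50 and 9.75 FPKM without Dox and at 110.55 and 139.16 FPKM with it. It rose by 3.56 on the log2 scale (limma, adjusted p = 1.04e-04), beside 3.52 for Six3. Six6 (ENSMUSG00000021099) lies on chromosome 12 from 72939892 to 72944899, plus strand, and shares 192 nt of exon with 4930447C04Rik, also called Six6os1, on the minus strand. That gene was at 0.48 and 0.38 FPKM without Dox and at 10.20 and 12.12 FPKM with it. It rose by 3.08 on the log2 scale (limma, adjusted p = 1.83e-04). Whether counting used strand is not given in the sources used here, so in the shared exon stretches the reads of a gene and of its antisense partner cannot be told apart. Gm28528 at Six3, and Otx2os1 and Gm49154 at Otx2, share 154 to 168 nt of exon with their gene, and none of these 3 exceeded 0.81 FPKM or was tested.

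The upstream sequence of Six3 is shown because it lies between the annotated starts of Six3os1 and this start of Six3, and both genes rose. 1 annotated Six3 transcript begins further upstream. The window covers the 250 bases before the RefSeq start site (chr17:85620584-85620833, plus strand, GRCm38.p6), written 5′ to 3′, with CCAAT or its reverse complement ATTGG in capitals.
Six3: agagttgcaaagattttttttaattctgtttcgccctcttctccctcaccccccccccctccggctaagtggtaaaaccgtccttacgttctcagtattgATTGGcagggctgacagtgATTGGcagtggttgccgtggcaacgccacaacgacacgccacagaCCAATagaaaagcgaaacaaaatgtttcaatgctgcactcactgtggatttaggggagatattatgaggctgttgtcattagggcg
The 3 matches begin 150, 131 and 86 bases before the start. CCAAT, searched on both strands, occurs in 33.85% of the 32851 promoter windows of the same length in the table. The Six6 window holds 2 matches, 68 and 16 bases before its start.

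LHX2 is a LIM-homeodomain factor required for the optic vesicle to progress to an optic cup, and it works in complexes with LDB proteins. Lhx2 (ENSMUSG00000000247, chromosome 2 from 38339281 to 38369733, plus strand) was at 26.72 and 24.30 FPKM without Dox and at 277.17 and 323.88 FPKM with it. The groups did not overlap, and the means of 25.5 ± 1.71 and 300.5 ± 33.0 FPKM (SD, n = 2 each) differed 11.8-fold. The log2 fold change was 3.50 (95% interval 3.26 to 3.75, adjusted p = 6.96e-05 in limma). Among the 13931 tested genes Lhx2 ranked 4550 and 4896 by FPKM in the untreated libraries and 428 and 329 in the Dox libraries. With Dox it was the most abundant of the 76 tested homeobox genes outside the Hox clusters in both libraries.

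Lhx9, the closest relative of Lhx2, was low in both groups. It was at 0.97 and 0.96 FPKM without Dox and at 0.15 and 0.21 FPKM with it, and it was not tested because its mean lay under 1 FPKM. With 1 FPKM added to each gene, the log2 ratio of Lhx2 to Lhx9 went from 3.81 and 3.69 to 7.92 and 8.07. The difference was 4.24 (exact permutation p = 0.333, the smallest possible). Because Lhx9 was so low, the difference depends on the pseudocount. It was 5.49 with a pseudocount of 0.1 and 3.52 with a pseudocount of 5.

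PAX6 carries a paired domain and a homeodomain and is expressed in the early eye as well as in much of the dorsal forebrain and spinal cord. Pax6 (ENSMUSG00000027168, chromosome 2 from 105668900 to 105697364, plus strand) was at 127.76 and 118.86 FPKM without Dox and at 122.80 and 130.69 FPKM with it. The groups overlapped. The log2 fold change was 0.04 with a 95% interval of -0.14 to 0.22 (adjusted p = 0.796 in limma). Pax6 was already at rank 2 of the 76 homeobox genes without Dox and at rank 923 and 1038 of all tested genes, and it stood at rank 4 of the 76 with Dox. The annotation gives it 26 transcripts, and the gene-level table does not separate them.

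OTX1 and OTX2 are orthodenticle-type factors, and both genes were lower with Dox. Otx1 (ENSMUSG00000005917, chromosome 11 from 21994764 to 22002897, minus strand) was at 31.21 and 29.98 FPKM without Dox and at 14.10 and 16.42 FPKM with it. The groups did not overlap, and the means of 30.6 ± 0.87 and 15.3 ± 1.64 FPKM (SD, n = 2 each) gave a level 2.01-fold lower with Dox. The log2 fold change was -0.96 (95% interval -1.20 to -0.73, adjusted p = 0.00307 in limma).

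Otx2 (ENSMUSG00000021848, chromosome 14 from 48657677 to 48673819, minus strand) was at 173.12 and 172.52 FPKM without Dox and at 137.05 and 131.35 FPKM with it. It was at rank 1 of the 76 homeobox genes without Dox and at rank 3 with it. The fall was 1.29-fold, from 172.8 ± 0.42 to 134.2 ± 4.03 FPKM (SD, n = 2 each), with a log2 fold change of -0.36 (95% interval -0.52 to -0.20, adjusted p = 0.0254 in limma). This call was lost under 7 of 14 other settings, with the adjusted p ranging from 0.0199 to 0.195, and all 4 fits without 1 library were among the 7. With 1 FPKM added to each gene, the log2 ratio of Otx1 to Otx2 was -2.43 and -2.49 without Dox and -3.19 and -2.93 with it. The difference was -0.60 (exact permutation p = 0.333, the smallest possible).

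Pigment epithelium and photoreceptor-lineage genes, which OTX2 is known to activate at later stages, were measured beside it. Pmel was at 1.20 and 1.20 FPKM without Dox and at 39.27 and 39.93 FPKM with it, and Dct at 0.09 and 0.14 and at 8.43 and 8.58 FPKM. The 13 pigment epithelium markers summed to 6.79 to 7.44 FPKM without Dox and to 67.6 to 68.9 FPKM with it. Of these, 9 stayed under 1 FPKM in every library, the visual-cycle genes Rpe65 and Lrat among them. Crx, a photoreceptor factor of the Otx family, was at 0.57 and 0.50 FPKM without Dox and at 5.22 and 6.09 FPKM with it. The 11 markers of differentiating retinal neurons summed to 2.46 to 2.56 FPKM without Dox and to 7.01 to 7.91 FPKM with it. Without Crx the other 10 summed to 1.89 to 2.06 and to 1.79 to 1.82 FPKM, and none of them was tested. That sum joins opposite changes at low levels. Atoh7 went from 0.77 and 0.94 FPKM without Dox to 0.18 and 0.18 FPKM with it. Vsx1 went from 0.04 and 0.02 to 0.45 and 0.43 FPKM. The photoreceptor gene Rcvrn was listed at 0 in all 4 libraries. The part of these cells in the Otx2 result was not tested.

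**Figure D2:**
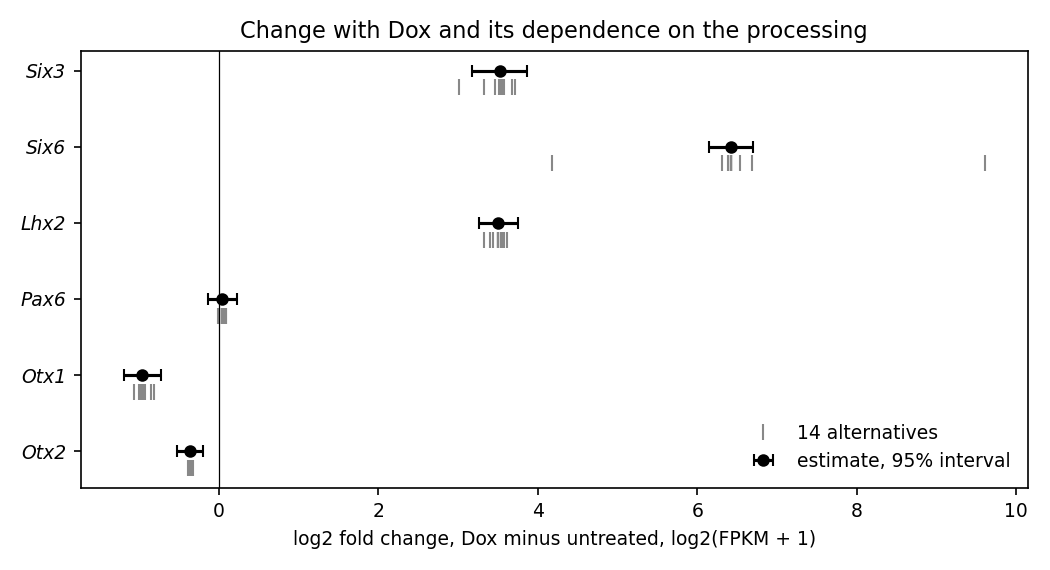
Log2 fold change of each gene, Dox minus untreated, on the log2(FPKM + 1) scale. Black points are the estimates with 95% intervals from limma on 4 libraries, and grey ticks the values under 14 other settings. Pax6 lies at 0.04, and Six6 ranges from 4.18 to 9.61 with the processing.

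The share that each gene took of the summed level differed between the groups. The 6 genes summed to 366.5 and 352.7 FPKM without Dox and to 713.4 and 803.5 FPKM with it. Otx2 and Pax6 held 47.2% and 34.9% of that sum in untreated replicate 1, and 48.9% and 33.7% in untreated replicate 2. With Dox, Lhx2 led with 38.9% and 40.3%. Six3 went from 2.1% and 2.0% to 11.6% and 13.5%, and Six6 reached 11.1% and 11.5%. Otx2 held 19.2% and 16.3% and Pax6 17.2% and 16.3% with Dox, and Otx1 went from 8.5% in both untreated to 2.0% in both Dox libraries.

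In the order of levels without Dox, Otx2 stood first, then Pax6, Otx1, Lhx2, Six3 and Six6, and no neighbours in that order overlapped between libraries. The narrowest gap was between Otx1 and Lhx2, at a ratio of 1.20. With Dox the order was Lhx2, Otx2, Pax6, Six3, Six6 and Otx1. There Six3 and Six6 overlapped, and Otx2 and Pax6 stood only 1.06-fold apart.

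**Figure D3:**
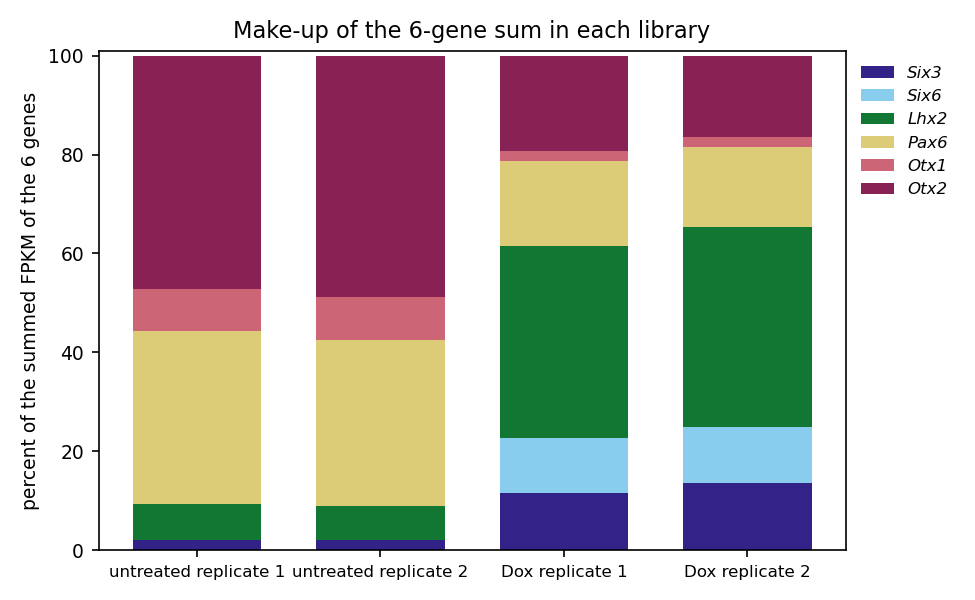
Percent of the summed FPKM of the 6 genes taken by each gene in each library. Otx2 and Pax6 fill most of the untreated bars, and Lhx2 takes the widest part of the Dox bars, 38.9% and 40.3%.

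Of the 12 nearest protein-coding neighbours, 11 were tested, 0 were called higher and 1 lower by limma, beside 9.31% of all tested genes called in either direction. The 1 that was called is Ehbp1, which lies 2.9 kb from Otx1 on the same strand and encodes an endocytic adaptor protein. Ehbp1 fell from 13.03 and 12.81 to 8.67 and 9.71 FPKM (log2 fold change -0.45, adjusted p = 0.0409 in limma), a call lost under 7 of 14 other settings. Six2, 55.0 kb from Six3, did not exceed 0.37 FPKM. Elp4, whose end lies 3.7 kb from that of Pax6 and whose introns hold known Pax6 enhancers, was not called (log2 fold change -0.07, adjusted p = 0.816 in limma).

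**Figure D4:**
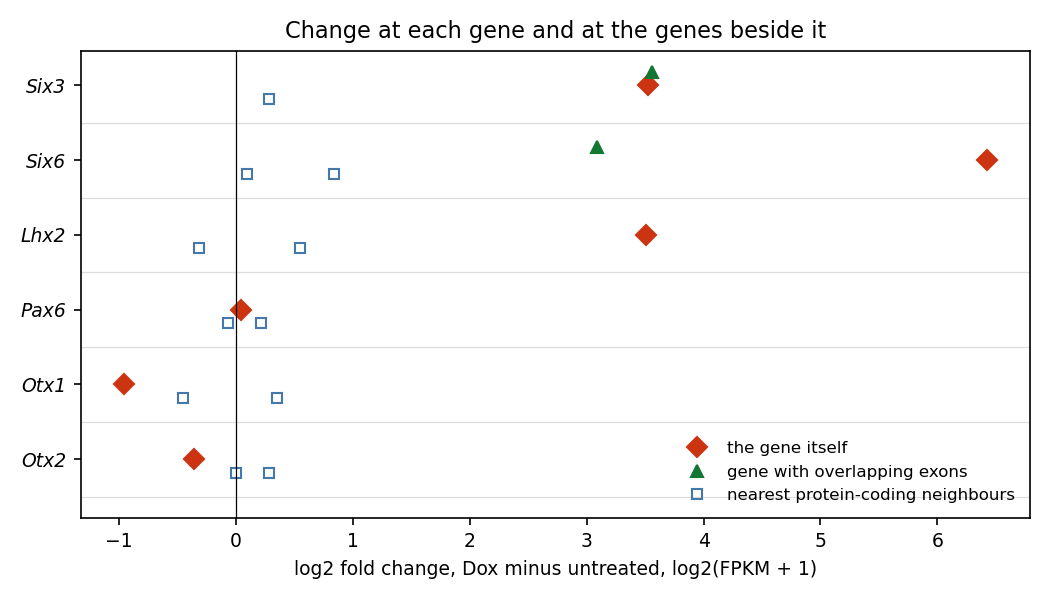
Log2 fold change of each gene (diamonds), of tested genes with overlapping exons (triangles) and of the nearest protein-coding neighbours (squares). The opposite-strand genes at Six3 and Six6 stand at 3.56 and 3.08, while the tested neighbours lie closer to 0.

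Other regulators of the eye field and optic vesicle were taken from a list. The list of 20, written with earlier results of these data known, had 17 tested genes. Of these 15 were higher and 2 lower past the threshold, with a median log2 fold change of 3.01 against -0.0042 over all tested genes. The shares over all tested genes were 4.44% higher and 4.87% lower. In 10 of the 17 the untreated mean was under 1 FPKM, so they passed the filter through the Dox libraries and had to differ to be tested. Of the 7 with both group means at 1 FPKM or more, 5 were higher and 2 lower, with a median of 0.77. Over all 13329 genes with such means, 3.86% were higher and 4.17% lower. The highest reported here were Rax (log2 fold change 6.78), Tbx2 (5.89), a T-box factor of the dorsal optic cup, Hmx1 (5.43) and Mab21l1 (4.90). The 2 lower genes were Foxd1, a marker of temporal retina, with -1.92, and Nr2e1, a nuclear receptor of neural progenitors also known as Tlx, with -0.56. The highest adjusted p of these 6 in limma was 0.0169, that of Nr2e1, whose call was lost with no filter and without any 1 library.

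Partners of the SIX3, SIX6 and LHX2 proteins were taken from a list as well. Of 18 partner genes 17 were in the table and 16 were tested, of which 3 were higher and 1 lower, with a median log2 fold change of 0.15. The 4 called make 25% of the tested partners, beside 9.31% of all tested genes, and a test of that difference was not made. Lmo1, whose product competes with LIM-homeodomain proteins for LDB, rose from 7.07 and 5.14 to 39.19 and 42.03 FPKM (log2 fold change 2.56, adjusted p = 4.56e-04 in limma). Lmo4 (0.58) and Ssbp2 (0.48) were the other 2 higher genes, and both calls were lost without untreated replicate 1, untreated replicate 2 or Dox replicate 2. Tle1, a Groucho-type co-repressor, fell from 47.48 and 47.18 to 31.46 and 34.89 FPKM (log2 fold change -0.50, adjusted p = 0.0152 in limma), a call lost with no filter and without untreated replicate 1, untreated replicate 2 or Dox replicate 1. Ldb1, the main LIM cofactor, was at 112.67 and 113.06 FPKM without Dox and at 130.78 and 143.71 FPKM with it (adjusted p = 0.0831 in limma).

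Of 20 other genes of the sine oculis, LIM-homeobox, Pax and Otx families 8 were tested, and 2 were higher, 2 lower and 4 not called. Among all tested genes 4.44% were higher and 4.87% lower. Both higher relatives passed the filter only through the Dox libraries, and Pax3 only through the untreated ones. Of the 4 with both group means at 1 FPKM or more, 0 were higher and 1 was lower in limma. Over all 13329 genes with such means, 3.86% were higher and 4.17% lower. Pax2, a factor of the optic stalk, was at 0.22 and 0.20 FPKM without Dox and at 20.56 and 30.37 FPKM with it. Crx, above, was the other higher relative. Lhx5 fell from 37.46 and 34.81 to 6.49 and 5.76 FPKM, and Pax3, a dorsal neural tube factor, from 6.97 and 6.99 to 0.71 and 0.47 FPKM. In limma the highest adjusted p among these 4 was 6.43e-04, that of Crx.

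The caudal list held genes that pattern the caudal forebrain, midbrain and hindbrain. Of 22 such genes 14 were tested, 11 were lower and 1 was higher, with a median log2 fold change of -2.17. Of all tested genes 4.87% were lower and 4.44% higher. In 8 of the 14 the Dox mean was under 1 FPKM, so these passed the filter through the untreated libraries and had to differ. Of the 6 with both group means at 1 FPKM or more, 3 were lower and 1 higher, with a median of -0.78. Over all 13329 genes with such means, 4.17% were lower and 3.86% higher. Wnt8b, which SIX3 is known to repress in the forebrain, fell from 87.09 and 85.29 to 4.07 and 5.57 FPKM (log2 fold change -3.92, adjusted p = 1.04e-04 in limma). Barhl2 (-2.58), Dmbx1 (-2.58), Barhl1 (-2.45) and Irx1 (-2.41) followed. Fgf8, a signal of the midbrain-hindbrain boundary that is also made in the anterior forebrain, was the 1 higher gene, from 3.16 and 2.99 to 6.06 and 5.92 FPKM (adjusted p = 0.00904 in limma), a call lost with no filter and without any 1 library.

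Homeobox genes as a class included calls in both directions. Of 157 homeobox genes outside the Hox clusters other than these 6, 156 were in the table and 70 were tested. Of the 70, 14 were higher and 22 lower, together 51.4% against 9.31% of all tested genes, and their median log2 fold change was -0.08. In 8 of the 70 the untreated mean and in 12 the Dox mean was under 1 FPKM, so these passed the filter through 1 group only. Of the 50 with both means at 1 FPKM or more, 7 were higher and 10 lower, and of all 13329 such genes 3.86% were higher and 4.17% lower. Besides Rax and Hmx1, the higher genes included Vax2 (2.91) and Meis1 (2.68). The lowest reported here were Pou3f3 (-3.23), Emx2 (-3.06), Pou3f2 (-2.71) and Dbx1 (-2.70). A test of the 6 genes against that class was not made, because they were chosen by name with earlier results known.

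**Figure D5:**
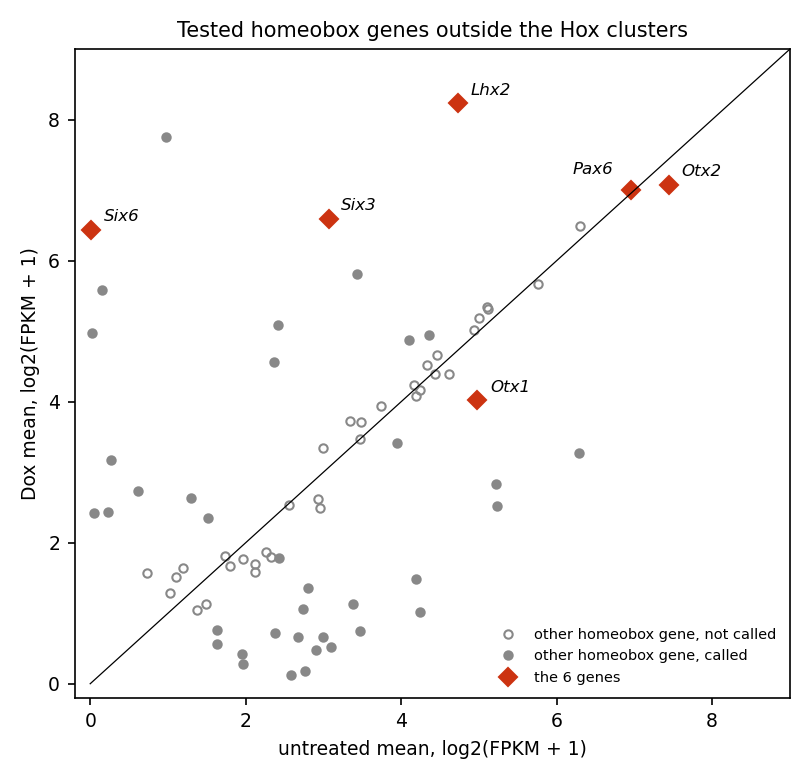
Mean log2(FPKM + 1) of the tested homeobox genes without Dox (horizontal) and with Dox (vertical). Red diamonds are the 6 genes, filled grey points other called genes, open points genes that were not called, and the line marks equal levels. Lhx2, Six3 and Six6 lie above the line, Pax6 on it, and Otx1 and Otx2 below it.

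Among those 70 genes the profiles most like each of the 6 were found by the root mean square difference of log2(FPKM + 1), each gene centred on its own mean over the 4 libraries. Rax, at 1.12 and 0.82 FPKM without Dox and 201.14 and 227.98 FPKM with it, was nearest to Six6 (0.194), followed by Hmx1 (0.497). Vax2 and Meis1 were nearest to both Six3 (0.347 and 0.429) and Lhx2 (0.326 and 0.414). Pbx3 was nearest to Pax6 (0.038), Pou3f1 to Otx1 (0.089), and Dlx2 and Msx1 to Otx2 (0.052 and 0.061). With 4 libraries in 2 groups, likeness reflects mainly the size of the change on this scale and the replicate spread. The pseudocount shrinks changes of low genes there, so near profiles need not share a fold change in FPKM. Pou3f1, at 2.36 and 1.83 FPKM without Dox and 0.42 and 0.54 FPKM with it, fell 4.4-fold, beside 2.0-fold for Otx1. Vax2 rose 39.3-fold, beside 13.0-fold for Six3 and 11.8-fold for Lhx2.

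Promoter windows of RefSeq (GRCm38.p6) were found for 5 of the 6 genes, 10 windows in all, and the 250 bases before each start were searched for 3 motifs on both strands. TAATTA, a core that many homeodomains bind, occurs in 4.84% of all windows, and TAATCC, preferred by OTX proteins, in 6.25%. Windows of Lhx2, Pax6 and Otx2 are shown beside that of Six3 to compare a gene that rose, the one that was not called and one that fell. TAATTA and CCAAT (or ATTGG) are in capitals, and all are written 5′ to 3′ on the strand of the gene (chr2:38339031-38339280, plus; chr2:105668646-105668895, plus; chr14:48667645-48667894, minus).
Lhx2: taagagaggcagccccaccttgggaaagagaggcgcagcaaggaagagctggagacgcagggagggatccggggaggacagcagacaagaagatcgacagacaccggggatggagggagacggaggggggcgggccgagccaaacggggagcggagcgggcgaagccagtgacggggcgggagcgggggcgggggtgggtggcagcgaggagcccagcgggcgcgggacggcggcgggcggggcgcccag
Pax6: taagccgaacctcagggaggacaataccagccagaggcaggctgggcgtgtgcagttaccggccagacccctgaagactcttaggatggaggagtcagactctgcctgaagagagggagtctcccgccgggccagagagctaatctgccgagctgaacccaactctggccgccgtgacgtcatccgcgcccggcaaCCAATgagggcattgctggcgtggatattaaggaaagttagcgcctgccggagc
Otx2: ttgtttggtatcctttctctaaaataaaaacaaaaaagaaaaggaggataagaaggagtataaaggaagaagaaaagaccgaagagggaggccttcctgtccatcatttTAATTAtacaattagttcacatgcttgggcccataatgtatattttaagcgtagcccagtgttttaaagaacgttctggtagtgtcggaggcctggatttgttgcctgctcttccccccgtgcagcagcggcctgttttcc
The Lhx2 window holds none of the 3 motifs and has a GC content of 72.8%, against a median of 52.4% over all windows. The Pax6 window holds 1 CCAAT, 54 bases before the start. The Otx2 window has a GC content of 42.0% and holds 1 TAATTA, 141 bases before the start. A further Otx2 window, which lies in annotated untranslated exon and is not shown, holds 3 TAATTA and 1 TAATCC. The remaining Otx2 windows hold neither TAATTA nor TAATCC. Otx2 had more windows to search than any other of these genes, so its matches cannot be compared evenly with theirs. The windows of Six3, Six6, Lhx2 and Pax6 hold neither TAATTA nor TAATCC. These are matches of letters and not measured binding sites.

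GGACT, a sequence context in which METTL3 is known to methylate adenosine, was counted in the longest protein-coding transcript of each gene in GENCODE M21. The median over 11629 tested genes with such a transcript was 1.05 per kb. Pax6 held 8 in 4427 nt (1.81 per kb, 84.3rd percentile) and Lhx2 4 in 2840 nt (1.41 per kb). Otx2 (1.16 per kb) and Otx1 (1.08 per kb) lay near the median. Six6 held 2 in 4009 nt (0.50 per kb, 17.6th percentile) and Six3 1 in 3680 nt (0.27 per kb, 9.2nd percentile). The 3 genes that rose stood on both sides of the median. RNA methylation was not analysed here.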

How the data were processed

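Poly(A) RNA of 4 libraries, 2 per group, was sequenced by the submitters. The authors deposited FPKM values, 1 column per library and rounded to 2 decimals. STAR, Cuffdiff and mm10 are named in the submitters' processing notes, and versions, annotation release and strand setting are not given in the sources used here. Groups and replicate numbers came from the sample titles. Values were analysed as log2(FPKM + 1) for the 13931 genes whose mean reached 1 FPKM, with limma 3.58.1 in R 4.3.3 (eBayes with an intensity trend, no covariate, two-sided, Benjamini-Hochberg, threshold 0.05). Fold changes on this scale understate changes of low genes. For 1 gene, 2 libraries against 2 allow no exact two-sided p below 0.333.

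Depth was fitted from the steps of values below 0.5 FPKM in single-transcript genes of 450 to 1200 nt, of which 89.4% to 90.5% lay within 0.2 of a whole fragment. Gene models came from GENCODE M21 and promoters from RefSeq, both GRCm38, the assembly also called mm10. The pipeline was tested on simulated data. The 6 genes and all lists were chosen with earlier results of these data known. Named genes are the 6, up to 5 called genes per direction and list, Lhx9, overlapping and neighbouring genes, and the 2 most alike homeobox genes for each. Any other name was chosen after its values were seen. Some genes that the rule selects are not reported here, though they stay in the counts. Alternatives were 2 other pseudocounts, 2 other filters, 3 scalings, 2 variance settings, a replicate block and leaving out each library.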

Additional observations from a re-analysis of the deposited data

How the results depend on the processing

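The calls of Six3, Six6, Lhx2 and Otx1 held under all 14 alternatives, and Pax6 was called under 0 of them (adjusted p 0.592 to 0.981 in limma). The log2 fold change of Pax6 was -0.0121 without untreated replicate 2 and -0.0050 without Dox replicate 2, and at most 0.0912 without untreated replicate 1. Fits without 1 library assume that the lone library varies like the other group. For Otx2 the log2 fold change stayed at -0.3628 but lost its call with no filter (adjusted p = 0.0616 in limma), without the trend (0.0579) and with the replicate block (0.105). It ranged from -0.3932 to -0.3324 without 1 library (adjusted p 0.0804 to 0.195). The number of lower genes among the 6 was thus 1 in place of 2 in these fits. Same-numbered libraries did not deviate together (correlation of deviations -0.0435), and the block changed no other call among the 6.

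Of the eye regulators, 1 in place of 2 was lower with no filter, with a minimum of 5 FPKM and without any 1 library (1 in each). Of the partner genes, 0 in place of 1 was lower with no filter, and without 1 library 0 to 1 were lower and 1 to 4 higher in place of 3. Of the relatives, testing only genes of at least 5 FPKM left 1 higher and 1 lower in place of 2 and 2. Of the caudal genes it left 0 higher and 2 lower in place of 1 and 11, and of the other homeobox genes 8 and 8 in place of 14 and 22. With no filter and without any 1 library 0 caudal genes were higher. Where more than the number of genes tested changed, the cause was not tested. Among 47 other named genes 0 called ones changed sign. Of those not called, Elp4 ranged from -0.2339 to 0.0951 without 1 library and turned positive without untreated replicate 2 and Dox replicate 2 (0.0506). Exoc5 ranged from -0.1075 to 0.1018 and turned positive without untreated replicate 2 and Dox replicate 1 (0.0323), and was 0.0188 after rescaling to TPM. Quantile normalization of the ratio to Lhx9, which is under the filter, was not run.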
